A study of Homo sapiens with 15 samples.

Results

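Small nucleolar RNAs (snoRNAs) and small Cajal body RNAs were followed through a time course of p300 inhibition in RPMI-8226 cells, an established line from a human multiple myeloma. The members were chosen by name and by mean level: they are the gene rows whose names begin with SNORD, SNORA or SCARNA and a digit and whose mean over the 15 libraries was at least 1 TPM (transcripts per 1000000, a level corrected for length and library size). Of 395 rows with such names, 193 met the threshold, among 26364 gene rows in all: 113 of 264 box C/D rows (SNORD), 70 of 107 box H/ACA rows (SNORA) and 10 of 24 scaRNA rows (SCARNA). The threshold used the mean of all groups and not a contrast between them. A row high in only 1 group could still pass through that group, and 9 members had a DMSO mean under 1 TPM.

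The study compared wild-type RPMI-8226 cells given 100 nM KB528, named in the labels as an inhibitor of the lysine acetyltransferase activity of p300, for 1, 3, 6 or 24 h with cells given DMSO. Each of the 5 groups held 3 libraries, and all came from 1 cell line grown in the same medium with serum. The DMSO libraries were collected at 0 h only, so KB528 and time in culture cannot be told apart. In the deposited values these libraries are headed as no treatment at 0 h, whereas the sample titles and the series design text give DMSO. Exposure to the vehicle may therefore differ between them and the treated libraries as well. The labels do not say whether the 3 libraries of a group were separate cultures, so p-values rest on a spread between libraries that may be only technical.

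A snoRNA is a short non-coding RNA that in most cases guides a chemical modification. Box C/D RNAs pair with ribosomal RNA and position the methylase fibrillarin for 2'-O-methylation, and box H/ACA RNAs position the dyskerin complex for pseudouridylation. The scaRNAs do the same for spliceosomal RNAs in Cajal bodies. Most human members lie in introns of host genes, many of them genes for ribosomal proteins or long non-coding RNAs, and are cut out of the spliced intron and trimmed. The mature forms carry no poly(A) tail, and the libraries here were made with an mRNA kit, so a row can hold reads of mature RNA, of trimming intermediates and of unspliced or retained host introns, which cannot be told apart. Because bulk RNA was measured, a change in RNA per cell and a change in the number of cells carrying it cannot be told apart either.

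The class boxes can be read in the sequences of the box C/D members on which the results below turn. They are shown because SNORD104, SNORD25 and SNORD110 are among the most abundant members, SNORD49A had the largest rise and SNORD50B the largest fall at 24 h among the C/D members named by the rule on change. The capitals mark the box C core TGATGA in the first 20 bases and box D, CTGA, in the last 15 bases.
SNORD104: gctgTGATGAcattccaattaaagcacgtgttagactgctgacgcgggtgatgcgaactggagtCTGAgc
SNORD25: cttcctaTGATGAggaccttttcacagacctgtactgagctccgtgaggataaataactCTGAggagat
SNORD110: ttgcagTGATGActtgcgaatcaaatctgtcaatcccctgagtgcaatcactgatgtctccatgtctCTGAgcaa
SNORD49A: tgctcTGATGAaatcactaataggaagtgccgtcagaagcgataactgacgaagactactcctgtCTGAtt
SNORD50B: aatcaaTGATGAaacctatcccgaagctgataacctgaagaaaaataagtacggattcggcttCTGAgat

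The box H/ACA members shown next are SNORA70 and SNORA73B, both abundant, SNORA44, one of the largest rises, SNORA9 and SNORA80B, which were lower at 24 h, and SNORA76C, the box H/ACA member that fell while the class rose. The capitals mark ACA placed 3 bases before the 3' end, and SNORA44 has no such match.
SNORA70: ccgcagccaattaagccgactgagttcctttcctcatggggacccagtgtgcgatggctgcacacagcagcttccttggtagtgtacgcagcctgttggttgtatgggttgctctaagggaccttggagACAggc
SNORA73B: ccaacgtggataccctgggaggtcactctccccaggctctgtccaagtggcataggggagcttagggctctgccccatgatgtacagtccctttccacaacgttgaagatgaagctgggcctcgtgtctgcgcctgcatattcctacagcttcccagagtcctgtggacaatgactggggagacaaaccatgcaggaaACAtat
SNORA44: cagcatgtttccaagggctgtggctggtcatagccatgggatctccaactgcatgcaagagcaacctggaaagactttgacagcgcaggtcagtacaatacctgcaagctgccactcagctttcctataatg
SNORA9: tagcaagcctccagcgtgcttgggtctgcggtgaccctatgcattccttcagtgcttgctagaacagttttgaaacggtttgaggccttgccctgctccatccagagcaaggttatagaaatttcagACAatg
SNORA80B: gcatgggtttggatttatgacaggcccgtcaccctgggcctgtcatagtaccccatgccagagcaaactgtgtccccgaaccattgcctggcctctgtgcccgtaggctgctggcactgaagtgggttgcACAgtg
SNORA76C: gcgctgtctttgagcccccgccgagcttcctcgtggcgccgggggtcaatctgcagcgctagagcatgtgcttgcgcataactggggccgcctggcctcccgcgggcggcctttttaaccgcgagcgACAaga

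All sequences are GENCODE release 29 transcripts on GRCh38, whereas the deposited values were made on hg19. On that build SNORD104 lies at chr17:64146083-64146152 on the plus strand, in an intron of SNHG25, and SNORA76C (current symbol SNORA50C) lies downstream at chr17:64146339-64146471, overlapping an exon of the same host. SNORD49A lies at chr17:16440036-16440106 on the plus strand in LRRC75A-AS1, and SNORD50B at chr6:85677589-85677658 on the minus strand in SNHG5. SNORA73B lies at chr1:28508559-28508762 on the plus strand in an intron of SNHG3, and SNORA80B at chr2:10446714-10446849 on the minus strand in an intron of ODC1. Of 96 box C/D members with a GENCODE sequence, 59 held TGATGA in the first 20 bases (61.5%) and 90 held CTGA in the last 15 (93.8%), on the RNA strand only. For all 272 box C/D names in GENCODE the shares were 69.9% and 92.3%. Of 68 box H/ACA members, 50 had ACA 3 bases before the end (73.5%), against 75.2% of all 137 box H/ACA names and 3.12% of the 96 box C/D members.

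The libraries carried the cell line's own markers and few reads of the members. All 8 plasma cell markers were present in every library (MZB1 at 1163 to 2670 TPM, XBP1 at 395 to 732 TPM), CD3D was at 0 in all 15 libraries, and the other T cell, monocyte and fibroblast markers reached at most 1.40 TPM. Of the erythroid markers, HBA1 stood at 6.87 to 10.2 TPM, while HBB was at 0 in 13 of the 15 libraries and reached at most 0.146 TPM. One read in a transcript of 1000 bases was worth 0.0311 to 0.0458 TPM, the relative depths were 0.759 to 1.12, and the members together took 8360 to 23090 reads a library. The median member held 42.7 reads a library in box C/D and 42.5 in box H/ACA, and 20 of 113 and 9 of 70 held fewer than 10. Just inside the threshold stood SNORA34 (1.09 TPM) and SNORD85 (1.11 TPM), and just outside it SNORA16B (0.986 TPM) and SCARNA20 (0.903 TPM), each at 2.27 to 4.07 reads a library. Among the 202 rows below the threshold were the 116 rows of the tandem clusters SNORD113 to SNORD116, of which 109 were listed at 0 in all libraries.

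Most members of both snoRNA classes were called higher at 1 h and 3 h, and at 24 h 43 of 113 box C/D and 22 of 70 box H/ACA members were called lower. The summed levels of both classes came most of the way back by 6 h and lay below DMSO at 24 h. The summed level of the 113 box C/D members was 3000, 2846 and 3338 TPM in the 3 DMSO libraries, 5190 to 5492 TPM at 1 h, 5615 to 6008 TPM at 3 h, 3410 to 3602 TPM at 6 h and 2332 to 2475 TPM at 24 h. The 70 box H/ACA members summed to 1297, 1208 and 1404 TPM in DMSO, 2134 to 2188 TPM at 1 h, 2087 to 2204 TPM at 3 h, 1324 to 1454 TPM at 6 h and 1075 to 1103 TPM at 24 h. In both classes the 1 h and 3 h libraries lay above all DMSO libraries and the 24 h libraries below them, while at 6 h the box H/ACA sums overlapped DMSO. The 10 scaRNAs summed to 68.8 TPM ± 4.58 (SD, n = 3) in DMSO and 110 TPM ± 14.3 at 3 h. All members together were 0.443% ± 0.0353 of the TPM in DMSO, 0.801% ± 0.0286 at 3 h and 0.354% ± 0.00688 at 24 h.

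**Figure D1:**
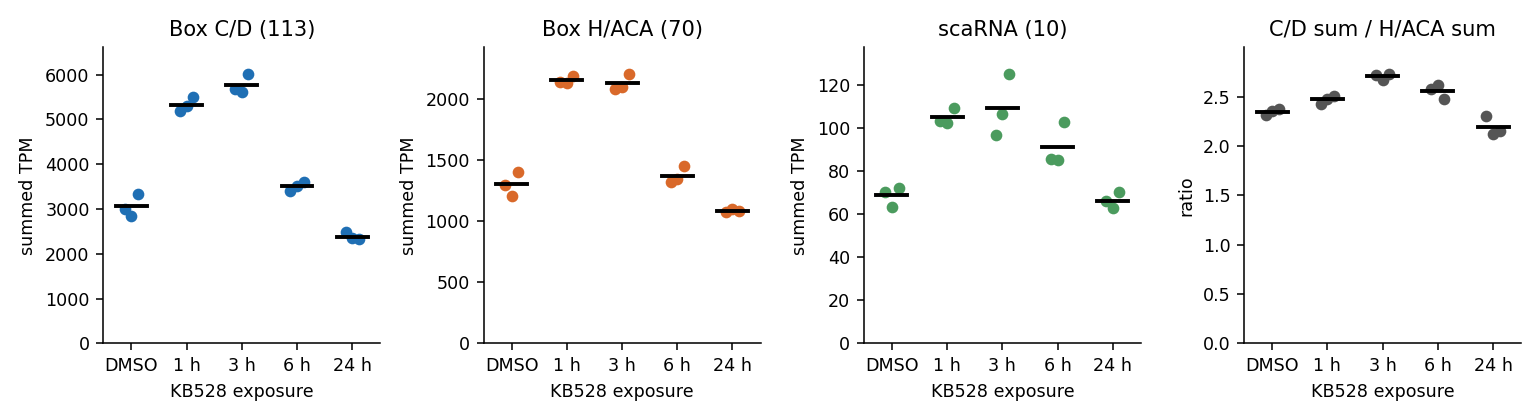
Summed TPM of the box C/D, box H/ACA and scaRNA members in each library, and the ratio of the box C/D to the box H/ACA sum, for DMSO and 4 times of KB528. Points are libraries and bars are means of 3; the box C/D sums at 1 h and 3 h lie at 5190 to 6008 TPM and those at 24 h at 2332 to 2475 TPM.

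Each row was compared with DMSO on log2(TPM + 1) with limma over 12002 gene rows, and a row was called at a Benjamini-Hochberg adjusted p under 0.05. At 1 h, 76 of 113 box C/D members rose and 0 fell, with a median log2 fold change of 0.79, while 15.01% of all tested genes were called higher and 7.57% lower, with a median of 0.04. At the same time 45 of 70 box H/ACA members rose and 1 fell, with a median of 0.69. Against the 0 box C/D members called lower here, 1 was called lower under spike-in scaling and 1 without DMSO replicate 2, and 86 of the 113 had an unadjusted p under 0.05 in either direction. At 3 h, 85 box C/D members rose and 0 fell (median 0.81), and 46 box H/ACA members rose and 1 fell (median 0.61), where 24.9% of tested genes were called higher and 32.0% lower. At that time 89 of the 113 had an unadjusted p under 0.05 in either direction, and 2 were called lower under spike-in scaling or without DMSO replicate 2. Under spike-in scaling, which moved the median of all genes at 3 h from -0.04 to -0.25, the box H/ACA count at 3 h was 30 higher and 1 lower, and the box C/D count 68 and 2. That scaling called 411 of all 12002 tested genes higher and 2523 lower at 3 h, against 2991 and 3836 in the main fit.

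By 6 h the picture was mixed and by 24 h it had turned. At 6 h, 27 box C/D members were higher and 8 lower (median 0.20), and 19 box H/ACA members were higher and 9 lower (median 0.12), against 44.4% higher and 24.5% lower over all tested genes. The balance at 6 h depended on scaling: with median-ratio scaling, which moved the median of all genes from 0.12 to -0.03, the box C/D counts were 18 and 13 and the box H/ACA counts 12 and 13, and with spike-in scaling, which moved it to 0.29, they were 44 and 4, and 28 and 6. The calls over all 12002 tested genes moved too. Median-ratio scaling called 3852 higher and 4590 lower at 6 h, and spike-in scaling 4118 and 995, against 5327 and 2945 in the main fit. At 24 h, 5 box C/D members were higher and 43 lower (median -0.31), and 3 box H/ACA members were higher and 22 lower (median -0.20). Over all tested genes 56.1% were called higher and 15.2% lower at 24 h, with a median of 0.23. The 5 box C/D members called higher became 10 without DMSO replicate 1 or without KB528 replicate 3, and the 3 box H/ACA members became 5 without KB528 replicate 2 or 3. Median-ratio scaling, which moved the 24 h median of all genes to 0.06, called 34 box H/ACA members lower in place of 22. It also called 3485 of the 12002 tested genes lower in place of 1826.

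**Figure D2:**
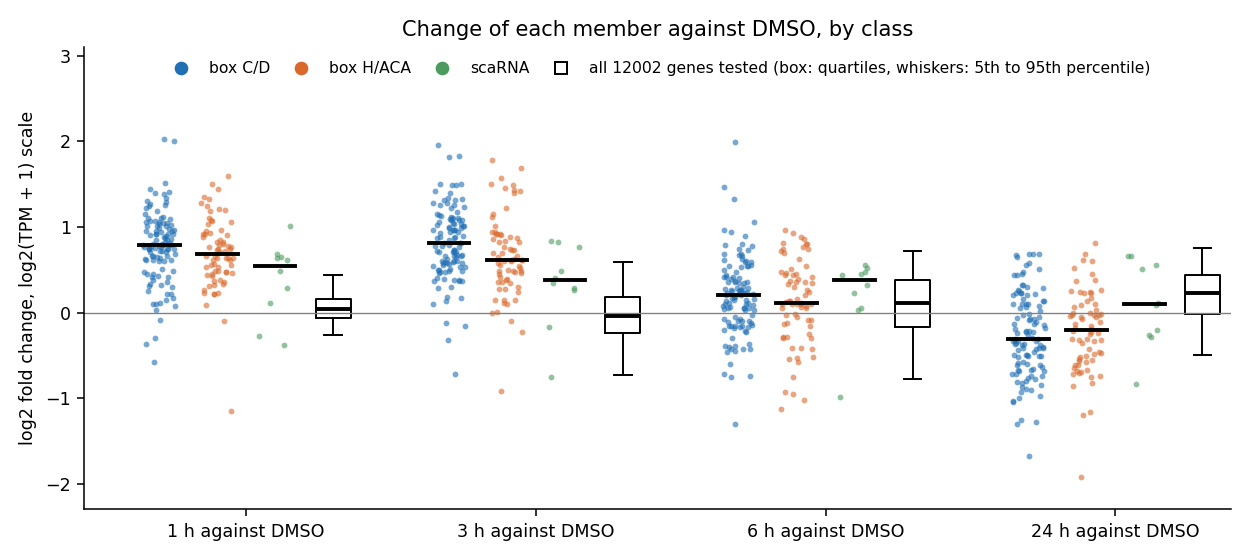
Log2 fold change against DMSO, on the log2(TPM + 1) scale, of each box C/D, box H/ACA and scaRNA member at 1, 3, 6 and 24 h, with a black bar at each class median. The open box shows all 12002 tested genes (quartiles, with whiskers at the 5th and 95th percentiles); the class medians of 0.79 and 0.69 at 1 h and of -0.31 and -0.20 at 24 h lie on opposite sides of 0.

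The return from 3 h was tested directly. Between 3 h and 6 h, 68 of 113 box C/D and 42 of 70 box H/ACA members fell and 2 and 1 rose, where 13.7% of tested genes fell and 42.3% rose. Between 3 h and 24 h, 92 box C/D and 52 box H/ACA members fell, with medians of -1.10 and -0.90, and 0 and 1 rose, where 19.9% of tested genes fell and 56.2% rose. Of the 113 box C/D members, 94 had an unadjusted p under 0.05 in that contrast, in either direction. By group means, 86 of the 193 members were highest at 1 h and 92 at 3 h, and 113 were lowest at 24 h, whereas 43.2% of all tested genes were highest at 24 h.

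Both classes rose early, and over all members the ratio of box C/D to box H/ACA was largest at 3 h. The ratio of the summed levels was 2.31, 2.35 and 2.38 in DMSO, 2.43 to 2.51 at 1 h, 2.67 to 2.73 at 3 h, 2.48 to 2.62 at 6 h and 2.12 to 2.30 at 24 h. The 3 h libraries were highest, with no overlap with any other group. Without the 6 most abundant members of each class the ratio was 2.69 to 2.79 in DMSO, 2.62 to 2.74 at 1 h, 2.73 to 2.87 at 3 h, 2.64 to 2.89 at 6 h and 2.51 to 2.81 at 24 h. The groups then overlapped, and the highest library was one at 6 h. The median changes of the classes, 0.79 and 0.69 at 1 h and 0.81 and 0.61 at 3 h, are descriptions, and the difference between the classes was not tested.

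Among the abundant box C/D members, SNORD104 stood at 209, 205 and 191 TPM in DMSO, 435, 431 and 402 TPM at 1 h, 481, 518 and 513 TPM at 3 h, 292, 311 and 306 TPM at 6 h and 178, 191 and 190 TPM at 24 h. Its 1 h, 3 h and 6 h libraries all lay above DMSO, and its 24 h libraries overlapped the lowest DMSO library. The log2 fold change was 1.06 ± 0.05 (SE) at 1 h (adjusted p = 5.47e-10), 1.32 at 3 h and then -0.11 at 24 h (adjusted p = 0.048), a call lost under 8 of 14 alternatives. The adjusted p at 24 h was 0.672 under spike-in scaling, 0.0740 without a filter, 0.0763 without a variance trend and 0.0797 with only the 2 groups compared. It was 0.169 without DMSO replicate 1, 0.115 without DMSO replicate 2, 0.201 without KB528 replicate 1 and 0.0566 without KB528 replicate 3. SNORD80, in GAS5, stood at 189, 216 and 229 TPM in DMSO, 374, 371 and 336 TPM at 1 h, 503, 463 and 515 TPM at 3 h, 287, 320 and 316 TPM at 6 h and 152, 137 and 124 TPM at 24 h. No treated group overlapped DMSO, and the log2 fold change went from 1.22 ± 0.08 at 3 h (adjusted p = 5.7e-09) to -0.61 ± 0.08 at 24 h (adjusted p = 7.0e-06).

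SNORD31 and its neighbours in SNHG1 followed the same course with a full return by 6 h. SNORD31 stood at 178, 147 and 191 TPM in DMSO, 376, 376 and 337 TPM at 3 h, 171, 176 and 186 TPM at 6 h and 132, 129 and 127 TPM at 24 h. Its 6 h libraries lay within the DMSO range and its 24 h libraries below it. SNORD25 had log2 fold changes of 0.51, 0.66, -0.17 and -0.78 at 1, 3, 6 and 24 h and SNORD28 of 0.65, 0.88, 0.03 and -0.66, the 6 h values being the ones not called. Under spike-in scaling the log2 fold changes at 1 h were 0.45 for SNORD25 and 0.59 for SNORD28 and that at 3 h was 0.43 for SNORD25, none of them called. The 24 h fall of SNORD31 was not called under that scaling either (-0.42, adjusted p = 0.103). SNORD22 (U22), a box C/D RNA needed for 18S ribosomal RNA processing, went from 70.9 TPM in DMSO to 154 and 153 TPM at 1 h and 3 h and to 59.1 TPM at 24 h. SNORD110, in the gene of the box C/D protein NOP56, peaked at 1 h instead: 97.3, 104 and 128 TPM in DMSO, 232, 214 and 193 TPM at 1 h and 172, 125 and 190 TPM at 3 h, where 1 library lay below the highest DMSO library. The 3 h call of SNORD110 (0.55) was lost under spike-in scaling (0.33, adjusted p = 0.217).

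On the log2(TPM + 1) scale the largest rise among the C/D members was that of SNORD49A. It stood at 9.78, 8.33 and 6.75 TPM in DMSO, 32.4, 37.3 and 40.0 TPM at 1 h, 27.7, 36.0 and 42.3 TPM at 3 h, 42.2, 38.1 and 28.5 TPM at 6 h and 13.3, 15.2 and 12.8 TPM at 24 h. Its level at 6 h was close to those at 1 h and 3 h, and all its treated libraries lay above all DMSO libraries. The log2 fold change was 2.02 ± 0.16 at 1 h (adjusted p = 2.5e-07), 1.999 ± 0.16 at 6 h and 0.68 ± 0.16 at 24 h (adjusted p = 0.0013). Of the other 2 members in the same host, SNORD65 had 1.29, 0.97, 0.09 and -0.51 over the 4 times, of which the first 2 were called, and SNORD49B, at a mean of 1.13 TPM in DMSO, was not called at any time. SNORD11, in NOP58, was low in DMSO (1.76 TPM) and rose by 2.01 ± 0.28 at 1 h, 1.82 at 3 h and 1.33 at 6 h. SNORD93 rose by 1.83 ± 0.36 at 3 h and 1.47 at 6 h, and SNORD69 by 1.44 and SNORD87 by 1.39 at 1 h. The SNORD87 call at 1 h was lost without a filter (adjusted p = 0.0519), without DMSO replicate 2 (0.0727) and without KB528 replicate 3 (0.0569). SNORD54 was called only at 3 h, by 1.50 ± 0.28.

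Among the box C/D members named for their change, the deepest fall at 24 h on the log2(TPM + 1) scale was in SNHG5. SNORD50B stood at 7.83, 9.64 and 11.4 TPM in DMSO, 18.0, 25.6 and 22.9 TPM at 3 h, and 3.02, 2.82 and 4.06 TPM at 24 h, a log2 fold change of -1.30 ± 0.23 (adjusted p = 0.00013). The 3 h libraries were all above DMSO and the 24 h libraries all below it. SNORD50A from the same host, at 2.32 to 3.93 TPM in DMSO, was listed at 0 in 2 of the 3 libraries at 24 h, and SNHG5 itself did not change (adjusted p = 0.85). SNORD75 fell by 1.04, SNORD4B by 1.25 and SNORD20 by 1.04 at 24 h, and at 6 h SNORD20, SNORD10, SNORD51 and SNORD83A were already lower, with log2 fold changes of -1.30, -0.76, -0.75 and -0.72. The C/D members higher at 24 h were SNORD58C (0.68), SNORD58A (0.44), SNORD49A (0.68), SNORD59B (0.68) and SNORD23 (0.21). Both SNORD58 members lie in the ribosomal protein gene RPL17, at 90 bases for SNORD58C and 65 for SNORD58A. As members of 1 family they may share reads, which was not tested. The SNORD58A call was lost under median-ratio scaling (0.26, adjusted p = 0.0555) and spike-in scaling (0.42, adjusted p = 0.103).

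In box H/ACA, SNORA73B rose most among the abundant members. This RNA, also called U17, acts in 18S ribosomal RNA processing. It stood at 49.5, 45.3 and 49.5 TPM in DMSO, 121, 115 and 137 TPM at 1 h, 165, 156 and 184 TPM at 3 h, 89.6, 90.7 and 98.2 TPM at 6 h and 50.8, 52.8 and 54.7 TPM at 24 h. The 6 h libraries still lay well above DMSO, and the log2 fold change went from 1.35 ± 0.07 at 1 h to 1.78 ± 0.07 at 3 h (adjusted p = 2.7e-11) and 0.13 at 24 h (adjusted p = 0.10). SNORA73B has a close copy, SNORA73A, in the same host, so its reads may be divided between them. SNORA16A, SNORA44 and SNORA61, all in SNHG12, rose by 1.60, 1.51 and 1.21 at 1 h and by 1.69, 1.51 and 1.22 at 3 h. SNORA51 rose only at 1 h (1.44 ± 0.31), SNORA24 by 1.57 ± 0.24 at 3 h, and SNORA45A by 1.49 ± 0.16 at 3 h and 0.97 at 6 h.

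SNORA70 and SNORA9 rose early and then fell below DMSO. SNORA70, in the ribosomal protein gene RPL10, stood at 117, 118 and 137 TPM in DMSO, 222, 215 and 222 TPM at 1 h, 193, 168 and 195 TPM at 3 h, 84.4, 111 and 107 TPM at 6 h and 89.7, 92.7 and 78.7 TPM at 24 h. Its 24 h libraries were all below DMSO (log2 fold change -0.51 ± 0.09, adjusted p = 0.00022), while the 3 h value of 0.58 lost its call under spike-in scaling (0.35, adjusted p = 0.182). The 6 h value of -0.30 lost its call under spike-in scaling (-0.11, adjusted p = 0.668), without DMSO replicate 3 (-0.23) and without KB528 replicate 1 (-0.18). SNORA9, in SNHG15, averaged 92.8 TPM in DMSO, 161 TPM at 1 h, 102 TPM at 3 h, 54.5 TPM at 6 h and 50.6 TPM at 24 h, its host row changing by 0.47, 0.29, -0.45 and -0.70. SNORA40, the most abundant box H/ACA member, moved least of these, from 122 TPM in DMSO to 179 TPM at 3 h and 121 TPM at 24 h. Its log2 fold changes at 1, 3 and 6 h were 0.42, 0.55 and 0.21, and under spike-in scaling 0.37, 0.33 and 0.40, none of them called. The 6 h call was also lost under median-ratio scaling (0.046), without DMSO replicate 3 (0.16) and without KB528 replicate 2 (0.17).

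On the log2(TPM + 1) scale, which understates the change of low rows, the deepest fall at 24 h was that of SNORA80B. It lies in an intron of ODC1, the gene for the rate-limiting enzyme of polyamine synthesis. SNORA80B stood at 5.62, 8.01 and 11.4 TPM in DMSO, 2.68, 4.86 and 3.03 TPM at 6 h and 1.89, 1.47 and 0.908 TPM at 24 h. The 24 h libraries were all below every DMSO library (-1.92 ± 0.22, adjusted p = 2.2e-06), and ODC1 was lower by 0.91 in the same libraries, from 710 to 378 TPM. SNORA75 and SNORD20, both in the nucleolin gene NCL, were lower together at 6 h (-1.13 and -1.30) and 24 h (-1.20 and -1.04), while NCL was 0.22 higher at 6 h and 0.43 lower at 24 h. SNORA32 (0.24), SNORA60 (0.60) and SNORA71E (0.61) were the H/ACA members called higher at 24 h. The SNORA32 call was lost under median-ratio and spike-in scaling and without KB528 replicate 1 or DMSO replicate 3, and SNORA71E belongs to a multi-copy family whose members may share reads.

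SNORA76C went the other way from its neighbour. It stood at 115, 106 and 111 TPM in DMSO, 54.5, 42.0 and 51.6 TPM at 1 h, 61.9, 54.7 and 57.6 TPM at 3 h, 62.0, 50.4 and 58.3 TPM at 6 h and 108, 101 and 106 TPM at 24 h. All libraries at 1, 3 and 6 h lay below all DMSO libraries, and those at 24 h reached back into the DMSO range. The log2 fold change was -1.16 ± 0.09 at 1 h (adjusted p = 1.6e-07), -0.92 at 3 h, -0.95 at 6 h and -0.07 at 24 h (adjusted p = 0.47), the last called lower under median-ratio scaling (adjusted p = 0.0208). It was the only box H/ACA member called lower at 1 h and 3 h, and the only member called higher at 24 h than at 3 h. SNORD104 in the same host rose at those times, and the SNHG25 row rose from 14.1 TPM ± 2.33 (SD, n = 3) in DMSO to 22.6 TPM ± 0.695 at 1 h and 30.0 TPM ± 2.73 at 3 h. The SNORA76C sequence overlaps an exon of SNHG25, and the sources used here do not say how reads that lie in both were assigned.

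**Figure D3:**
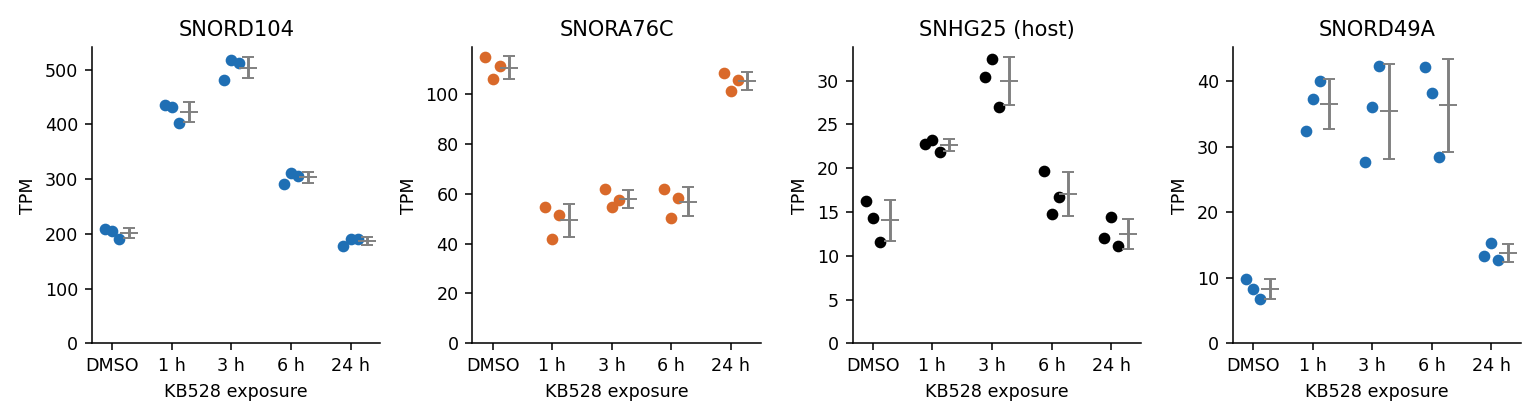
TPM of SNORD104, SNORA76C, their shared host SNHG25 and SNORD49A in each library, with the mean and SD of 3 libraries beside the points. SNORA76C falls to 42.0 to 62.0 TPM at 1 to 6 h, where SNORD104 stands at 292 to 518 TPM; SNORD49A is still at 28.5 to 42.2 TPM at 6 h.

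The scaRNAs were few and mostly low. Of 10, 3 were called higher and 1 lower at 1, 3 and 6 h, and 2 higher and 2 lower at 24 h, where at 1, 3, 6 and 24 h 15.01, 24.9, 44.4 and 56.1% of all tested genes were higher and 7.57, 32.0, 24.5 and 15.2% lower. The share called higher was thus near that of all genes at 3 h and below it at 6 h and 24 h. SCARNA12, which lies in PHB2, was the most abundant, at 38.6, 37.2 and 40.3 TPM in DMSO, 64.2, 71.2 and 72.2 TPM at 3 h and 33.9, 31.5 and 31.0 TPM at 24 h. Its 3 h libraries lay above DMSO and its 24 h libraries below, with log2 fold changes of 0.82 ± 0.07 and -0.26 ± 0.07 (adjusted p = 0.0028), while the PHB2 row changed by -0.13 and -0.22. Its calls at 1 h and 24 h were lost under spike-in scaling, with values of 0.555 and -0.28. SCARNA15 was higher at every time, from 4.63 TPM in DMSO to 10.4 TPM at 1 h and 8.05 TPM at 24 h. SCARNA9, in CEP295, was lower at every time, at 4.13, 4.67 and 3.76 TPM in DMSO and 1.76, 1.43 and 1.64 TPM at 6 h (-0.99 ± 0.12), when the CEP295 row was 0.55 higher. SCARNA2, described as transcribed from its own promoter, was higher at all 4 times by 0.45 to 0.56, from 1.16 TPM in DMSO to 2.17 TPM at 24 h, and SCARNA17 was not called at any time. SCARNA27, the second most abundant at 11.2 TPM in DMSO, was not called either.

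Position within hosts was compared next. Of the 193 members, 191 were placed in a host gene, over 100 hosts, 137 members in protein-coding and 54 in non-coding hosts. Members in non-coding hosts were called higher in 45 of 54 cases at 1 h, in 46 at 3 h, in 23 at 6 h, and lower in 23 at 24 h, with medians of 0.88, 1.02, 0.40 and -0.28. In protein-coding hosts the counts were 78 of 137, 87 and 26 higher and 44 lower, with medians of 0.68, 0.61, 0.14 and -0.23. Over all tested genes 15.01, 24.9 and 44.4% were higher at 1, 3 and 6 h, and 15.2% were lower at 24 h. At 6 h the 42.6% called higher in non-coding hosts was thus near the share of all genes, and the 19.0% in protein-coding hosts was below it. Of the 117 members that overlap an exon of some host transcript, 88 rose at 1 h (median 0.77), and of the 74 that lie in an intron of every host transcript, 35 rose (median 0.66). As annotated, host exon reads can enter the rows of the first set and not those of the second.

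At 1 h and 3 h most members lay above the rows of their hosts, a difference that was not tested, and at 6 h about as many lay above as below. For 181 members the host row was tested as well. The member's log2 fold change was above that of its host for 160 of 181 at 1 h and at 3 h, 96 at 6 h and 69 at 24 h, with median differences of 0.56, 0.51, 0.03 and -0.16. At 1 h, 68 members rose with a host that rose and 44 rose where the host was not called. Pearson's r across the 181 pairs was 0.27, 0.36, 0.31 and 0.39 over the 4 times, given as a description because members share hosts and libraries. The 93 tested hosts had medians of 0.05, 0.08, 0.11 and -0.04, and of the 19 non-coding hosts 14, 16 and 9 rose at 1, 3 and 6 h and 9 fell at 24 h. Of 22 tested long non-coding hosts on a list of known snoRNA hosts, 16, 17, 9 and 1 were higher and 1, 4, 4 and 10 lower at the 4 times, and of 53 protein-coding hosts on such a list 6, 12, 19 and 9 were higher and 4, 12, 9 and 18 lower. At those times 15.01, 24.9, 44.4 and 56.1% of all tested genes were higher and 7.57, 32.0, 24.5 and 15.2% lower.

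**Figure D4:**
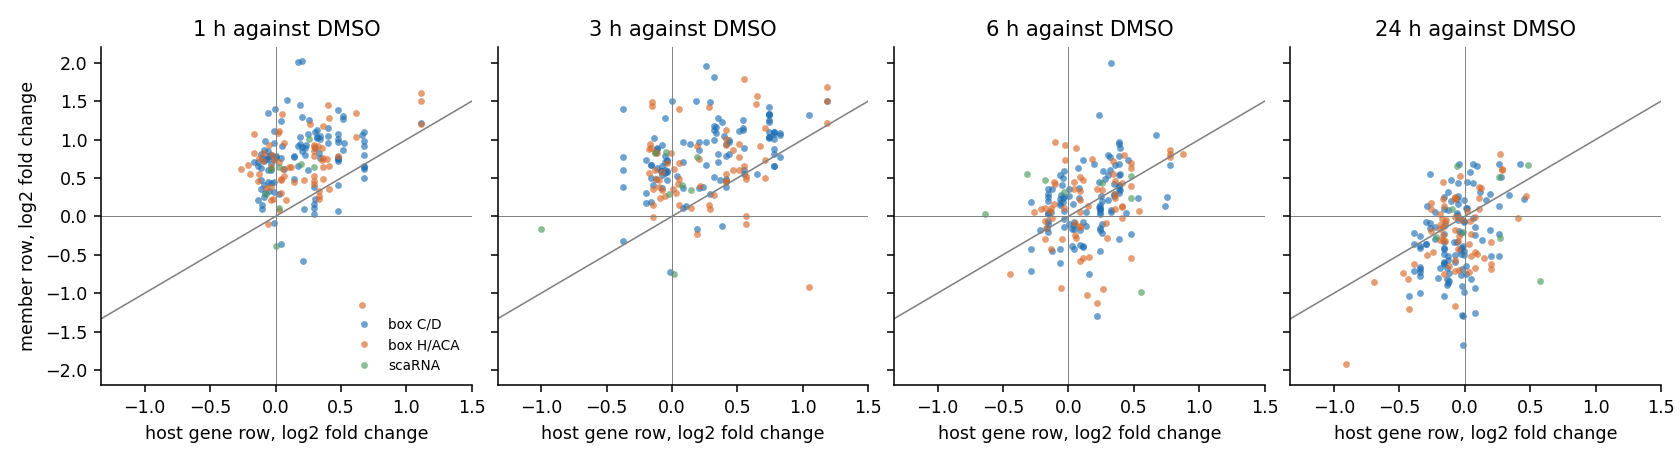
Log2 fold change against DMSO of each of 181 members (vertical) against that of its host gene row (horizontal) at 1, 3, 6 and 24 h, coloured by class, with the line of equality. At 1 h and 3 h 160 points lie above the line, and 69 do at 24 h.

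The clusters show how far members of 1 host kept together. All 10 members in GAS5, a non-coding host whose spliced product is short-lived, rose at 3 h by 1.02 to 1.42, while the GAS5 row rose by 0.74, from 310 to 520 TPM. At 24 h 7 of the 10 were lower and the GAS5 row was lower by 0.16. SNORD75 stood apart within it at 1 h, at 8.95, 13.9 and 13.0 TPM against 10.4, 11.9 and 11.1 TPM in DMSO, and SNORD76 remained higher at 6 h (0.97). All 8 members in SNHG1 rose at 1 h and 3 h and fell at 24 h, and the SNHG1 row changed by 0.68, 0.78, 0.24 and -0.34. In SNHG12 all 4 members rose at 1, 3 and 6 h, where the host rose by 1.11, 1.18 and 0.77. For comparison, 15.01, 24.9 and 44.4% of all tested genes were called higher at 1, 3 and 6 h, and 15.2% lower at 24 h. These clusters were picked after their values were seen.

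The ribosomal protein genes RPS12, RPL7A and RPL4 were not called or were lower at 3 h, when members in their introns rose. The RPS12 row was 2789 TPM ± 241 in DMSO and 2578 TPM ± 276 at 3 h, not called, and its 3 members SNORD100, SNORD101 and SNORA33 rose by 0.89, 0.88 and 0.83 at 3 h and fell by 0.84, 0.74 and 0.65 at 24 h. RPL7A was not called at any time, while SNORD24 in it rose by 1.34 at 1 h and 1.28 at 3 h and SNORD36A, 36B and 36C by 0.57 to 0.79; the SNORD36 copies may share reads. RPL4 was lower by 0.16 at 3 h, when SNORD16 and SNORD18C in it were higher by 0.50 and 0.67.

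Classes within 1 host could be set side by side in TAF1D and EIF4A2. In TAF1D, both C/D members, SNORD5 and SNORD6, were lower at 24 h (-0.50 and -0.60), and of the 6 H/ACA members SNORA1 was lower (-0.71), SNORA32 higher (0.24) and the other 4 not called. In EIF4A2, SNORD2 rose by 0.82 at 1 h, when SNORA4, SNORA63 and SNORA81 were at 0.23, 0.26 and 0.33 and not called, and all 4 were higher at 3 h by 0.60 to 1.11. The 4 members in NOP56 had their highest group mean at 1 h, while the NOP56 row was highest at 3 h (558 TPM). The row of EIF4A1, host of SNORD10, SNORA48 and SNORA67, was listed at 0 in all 15 libraries, so its level cannot be read.

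**Figure D5:**
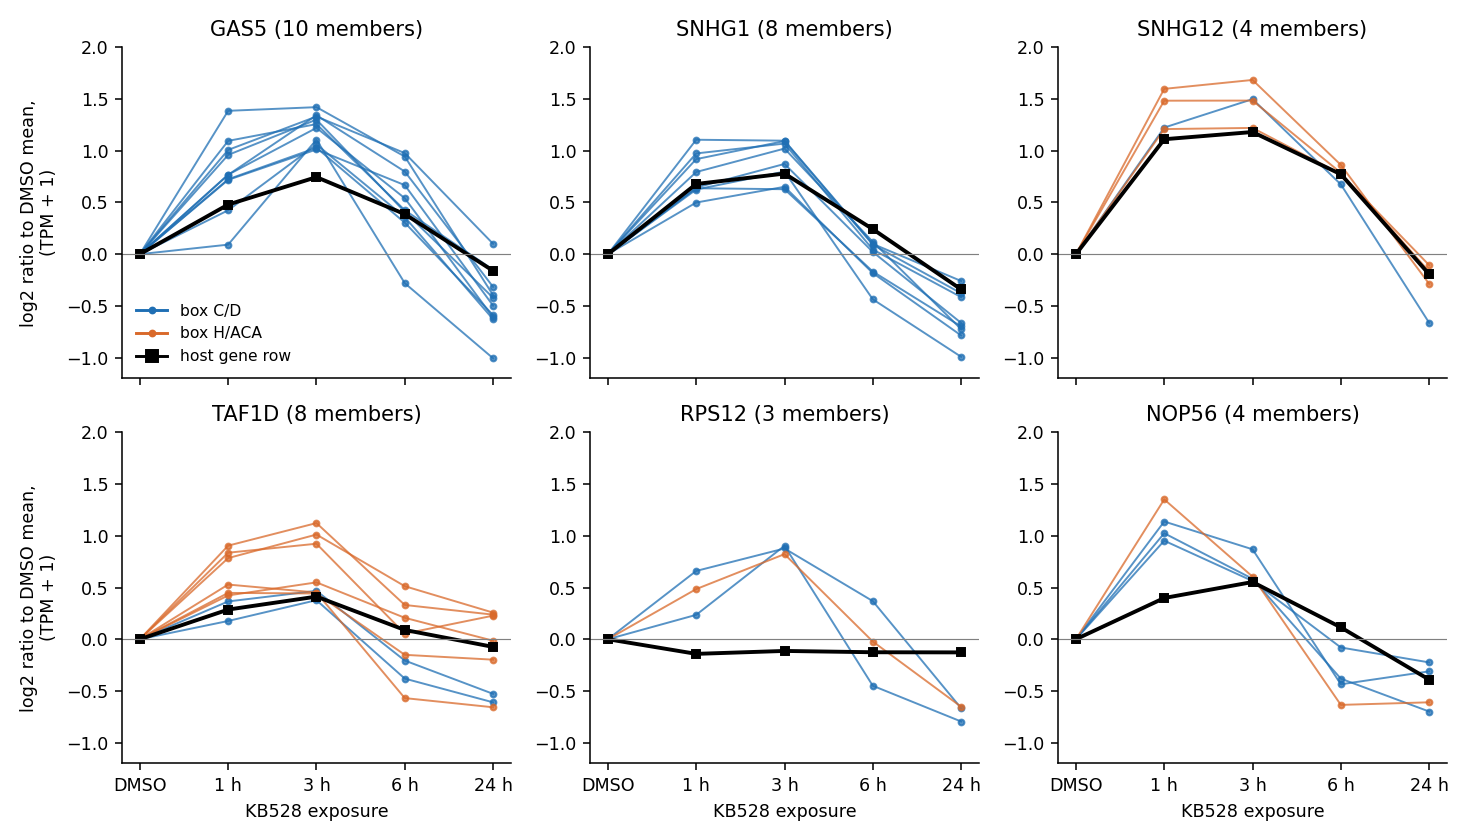
Log2 ratio of group mean TPM + 1 to the DMSO mean, over DMSO, 1, 3, 6 and 24 h, for the members (coloured lines) and the host row (black) of GAS5, SNHG1, SNHG12, TAF1D, RPS12 and NOP56. Host rows rise in GAS5, SNHG1 and SNHG12, while the RPS12 row stays near 0 as its 3 members peak at 3 h.

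Most genes for the core snoRNA proteins were lower at 24 h, as were most snoRNAs called at that time. Of the 4 core box C/D proteins, 2 were higher at 1, 3 and 6 h, 1 was lower at 3 h and all 4 were lower at 24 h (median -0.35, against 0.23 over all tested genes, of which 15.2% were lower). NOP56 was 0.40, 0.55 and 0.11 higher and then 0.39 lower, NOP58 0.17, 0.32 and 0.23 higher and then 0.26 lower, and NHP2L1, which binds the C/D motif, 0.46 lower at 24 h. Of the 4 core box H/ACA proteins, 1, 2 and 2 were higher at 1, 3 and 6 h, 1 was lower at 1 h and at 6 h and 3 were lower at 24 h (median -0.26). Over all tested genes 15.01, 24.9 and 44.4% were higher and 7.57, 32.0 and 24.5% lower at 1, 3 and 6 h. The 50% of each list called higher at 6 h was thus near the share of all genes. The 25% of the core C/D proteins called lower at 3 h was below it. The pseudouridine synthase gene DKC1 stood at 0.22, 0.47, 0.51 and -0.30, and GAR1 and NHP2 were lower by 0.24 and 0.27 at 24 h.

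Of 10 assembly factors, 0, 5, 4 and 2 were higher and 1, 2, 2 and 3 lower at 1, 3, 6 and 24 h, when 15.01, 24.9, 44.4 and 56.1% of all tested genes were higher and 7.57, 32.0, 24.5 and 15.2% lower. The share of assembly factors called higher was near that of all genes at 6 h and below it at 24 h. At 3 h ZNHIT6 and SHQ1 were higher by 0.54 and 0.32. Of 22 genes for end processing and decay, 8, 11, 15 and 13 were higher and 1, 5, 3 and 4 lower, with medians of 0.09, 0.17, 0.28 and 0.19, and at 24 h the 59.1% called higher was near the 56.1% of all genes. DBR1, the lariat debranching enzyme that opens spliced introns, was higher at all 4 times by 0.51, 1.14, 0.77 and 0.39, and the exosome nuclease gene EXOSC10 was higher by 0.24, 0.72 and 0.31 from 3 h on. Of 5 tested Cajal body genes, 2, 3, 3 and 3 were higher and 0, 0, 0 and 1 lower, again near the share of all genes at 24 h. Among them COIL, which encodes the scaffold coilin, stood at 0.20, 0.53, 0.52 and 0.20, and NOLC1 was lower by 0.47 at 24 h.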

How the data were processed

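The authors deposited 1 table of TPM values for 15 libraries, made on hg19 with STAR and featureCounts per the submitters' processing notes, which give no versions; per the labels' protocols, RNA was made into strand-specific mRNA libraries. Each column sums to 1000000 with its 92 spike-in rows, which took 9.35 to 16.6% of the TPM of a library. Within the 6 h group they took 14.5, 11.5 and 9.35%, so levels and sums in TPM depend on that share. The spike-in rows were left out of the tests, and 0 columns were left unused. TPM are not counts, so no count model was used. The depth was read from the low values: of 1474 low values, 94.6% were whole reads within 0.05. Counting error is largest for members near the threshold.

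On the log2(TPM + 1) scale, limma 3.58.1 (R 4.3.3; all 15 libraries in 1 fit, variance trend) was run over the 12002 genes whose mean reached 1 TPM, with Benjamini-Hochberg adjustment within each contrast and a threshold of 0.05. Fold changes on this scale understate the change of low genes. The contrasts of 6 h and 24 h with 3 h were added after seeing the data, as was the ratio without the 6 highest members of each class. The members and lists were chosen with earlier results of these data known. The members named are the most abundant of each class, those with the largest called changes at each time (mean of at least 5 TPM and no overlap with DMSO), members said to have their own promoters and those at the threshold, with their hosts. Members of host clusters, lists of 5 or fewer calls and genes of the protein lists were picked after their values were seen. Some results under these rules are not reported here. The script was tested on simulated data.

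Hosts came from GENCODE release 29. Members were placed by GENCODE, for 171, or by the RefSeq gene spans, for 22, both on GRCh38. For the 171 the host had to lie on the same strand. For the 22 the strand of the member was not compared with that of the host, and a host was taken only where all candidate genes shared a strand. Alternatives were another pseudocount, filters, scalings, the variance trend, the groups in the fit, the replicate block and leaving out each replicate. Replicates correlated across genes with r of 0.995 to 0.998, and 0 pairs of libraries were identical. Python 3.11.15 with pandas 2.3.3, numpy 2.4.6 and matplotlib 3.10.9 made the tables and figures.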

Additional observations from a re-analysis of the deposited data

Results flagged for a closer look

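In 9 named members the change at 3 h and the change at 24 h were both called (limma) and had opposite signs. The direct test between 24 h and 3 h was called as well. Choosing members with called changes of opposite sign made that outcome all but certain, so the direct test adds no support. Both changes share the DMSO libraries, and the difference between the times does not use them. The log2 difference of 24 h minus 3 h was -2.43 ± 0.23 (SE) for SNORD50B, -2.14 ± 0.20 for SNORD75, -1.84 ± 0.08 for SNORD80, -1.54 ± 0.10 for SNORD28, -1.48 ± 0.08 for SNORD31, -1.43 ± 0.09 for SNORD25 and -1.43 ± 0.05 for SNORD104. It was -1.08 ± 0.09 for SNORA70 and -1.08 ± 0.07 for SCARNA12. The largest adjusted p among the 9 was 1.4e-07, that of SNORD50B. Under spike-in scaling 5 of the 9 lost 1 of the calls against DMSO: SNORD25 (0.43, adjusted p = 0.0988) and SNORA70 (0.35, 0.182) at 3 h, and SNORD104 (-0.13, 0.672), SNORD31 (-0.42, 0.103) and SCARNA12 (-0.28, 0.301) at 24 h. The SNORD104 call at 24 h was lost under 7 other alternatives as well, 4 of which left out 1 replicate.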

How the results depend on the processing

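Of 1400 values of named members under alternatives (100 values, 14 alternatives each), 1355 kept their side of the threshold. Of the rest, 34 lost a call, 15 of them under spike-in scaling, and 11 gained one. Among values called in the main fit or under the alternative, 0 changed direction. Changes of direction among values called in neither were not counted. With spike-in scaling the box C/D members called lower were 1, 2 and 4 at 1, 3 and 6 h and those called higher 44 at 6 h and 8 at 24 h, and the box H/ACA members called higher were 30 at 3 h and 6 at 24 h. With median-ratio scaling 13 box C/D members were lower at 6 h and 3 higher at 24 h, and 12 box H/ACA members were higher at 6 h and 34 lower at 24 h. At 1, 3, 6 and 24 h spike-in scaling called 348, 411, 4118 and 2439 of all 12002 tested genes higher. It called 123, 2523, 995 and 657 lower. For median-ratio scaling the counts were 1852, 3260, 3852 and 4618 higher and 1779, 4227, 4590 and 3485 lower. The main fit called 1802, 2991, 5327 and 6738 higher and 908, 3836, 2945 and 1826 lower. A pseudocount of 0.1 gave 5 box H/ACA members higher at 24 h. With only the 2 groups compared in the fit, 8 box C/D and 5 box H/ACA members were higher at 24 h. Whether the replicate numbers pair the samples was not settled. Correlations of same-numbered libraries of different groups, as deviations from their group means, ranged from -0.157 to 0.430, with a median of 0.00548. Those of libraries with other numbers ranged from -0.475 to 0.218, with a median of -0.0125. With the replicate block 1 box C/D member was lower at 3 h, and 8 box C/D and 5 box H/ACA members were higher at 24 h. Leaving out 1 replicate at a time gave the ranges 0 to 1 box C/D members lower at 1 h, 0 to 2 box C/D members lower at 3 h, 5 to 10 box C/D members higher at 24 h and 2 to 5 box H/ACA members higher at 24 h. The cause of these differences was not tested. Depth limits the members near 1 TPM, where those at the threshold held 2.27 to 4.07 reads a library by the depth read from the low values.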

Other observations

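Other short RNA rows of the same table, 202 in all, of which 194 are miRNA rows, gave other counts than the snoRNA rows. At 1, 3, 6 and 24 h they had 40, 47, 48 and 42 rows called higher and 5, 16, 17 and 17 called lower (limma), where 15.01, 24.9, 44.4 and 56.1% of all tested genes were higher and 7.57, 32.0, 24.5 and 15.2% lower. The share called higher was 19.8, 23.3, 23.8 and 20.8%, near that of all genes at 1 h and 3 h and below it later, with median log2 fold changes of 0.32, 0.25, 0.19 and 0.30. Between 3 h and 24 h, 39 of the 202 rose and 38 fell. Their summed level was 5519 TPM ± 711 (SD, n = 3) in DMSO, 7286 TPM ± 235 at 3 h and 6583 TPM ± 371 at 24 h. The difference between these rows and the snoRNA rows was not tested.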
